A study of Mus musculus with 10 samples.

Results

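The nuclear receptors measured here were 47 mouse genes, taken by symbol from the deposited table of genes, with 1 row for each among 29583 rows. The members were chosen as a gene family. Nuclear receptors are transcription factors that carry their own ligand pocket. A steroid, sterol, bile acid, retinoid, thyroid hormone or fatty acid binds there, and the receptor then recruits coactivators or corepressors at its DNA sites. β-Ecdysterone, the compound given to the cells, is a plant sterol that also serves insects as their moulting hormone. Insects sense it through a nuclear receptor that mammals lack, and the liver X receptors (LXR) and the farnesoid X receptor (FXR) are its nearest mammalian relatives. In bone-forming cells, the receptors for vitamin D, glucocorticoids, estrogens, retinoic acid and thyroid hormone are known regulators of growth and matrix production.

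MC3T3-E1 is a preosteoblast line from the skull of newborn C57BL/6 mice, and the source field of the labels instead calls the cells bone marrow mesenchymal stem cells. The cells, of the third generation, were kept in standard medium with β-ecdysterone at 0, 100, 150 or 200 μM and were collected after 5 or 10 days. A single polyA RNA library (n = 1) was deposited for each dose and day. The treated group thus held 6 libraries that differ in dose and day, and the 0 μM group held 2 libraries, 1 from each day. 2 further libraries, A-5 and B-4, were labelled as untreated and carry no time in the labels.

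Library totals ran from 27108562 to 58218009 reads counted on genes, and between 31300928 and 48951468 reads at 0 μM. On each day the 150 μM library was the deepest, with 57220036 reads on day 5 and 58218009 on day 10. The part of depth in the levels at 150 μM was not tested. No 2 libraries held the same counts. The untreated libraries stood apart from each other. Thra was at 21.5 FPKM (the authors' level of a transcript, scaled to its length and to library size) in A-5 and at 52.0 FPKM in B-4, and Nr2f2 was at 36.9 FPKM in A-5 and at 14.2 FPKM in B-4. A-5 lay beyond or near the 0 μM libraries for both genes and B-4 lay above or within the treated libraries. Neither library entered the main tests, and values against both, or against each alone, are given below where they end a call. All 11 osteoblast markers had counts, and 10 of them had counts in all 10 libraries. Alpl (2 counts in both 0 μM libraries together), Ibsp, Runx2 and Sp7 rose past both limits of the study in treated cells, and Dmp1 fell past both. Spp1 fell past the limit on the adjusted p alone, and the other 5 markers were not called, Col1a1 and Col1a2 among them. With no fold limit, 36.4% of the markers rose and 18.2% fell, beside 22.6% and 20.8% of all genes tested. Where nothing in the labels shows separate cultures, p-values measure only the spread between these libraries, which differ in dose as well. In bulk RNA, fewer cells of a type and less RNA per cell cannot be told apart.

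Of the 47 receptors, 27 had at least 10 counts in all 10 libraries, and 45 had a count in at least 1. By mean FPKM over the 10 libraries, 6 stood at 20 or more. These were Thra, the thyroid hormone receptor alpha, at 39.9 FPKM, Rarg, the retinoic acid receptor gamma, at 34.4 FPKM, Nr1h2, which encodes LXR beta, at 29.6 FPKM, Rxra, the common partner of many receptors, at 25.6 FPKM, Nr2f2, the orphan receptor COUP-TFII, at 23.2 FPKM, and Nr3c1, the glucocorticoid receptor, at 20.5 FPKM. A further 13 lay between 5 and 20 FPKM and 6 between 1 and 5 FPKM, among them both estrogen receptors, LXR alpha and FXR. Nr4a2 and Nr4a3 lay between 0.1 and 1 FPKM. The other 20 had a mean under 0.1 FPKM, with single libraries of Nr1i3 up to 0.228 FPKM, and 2 of them, Nr0b1 and Nr0b2, were listed at 0 in every library.

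**Figure D1:**
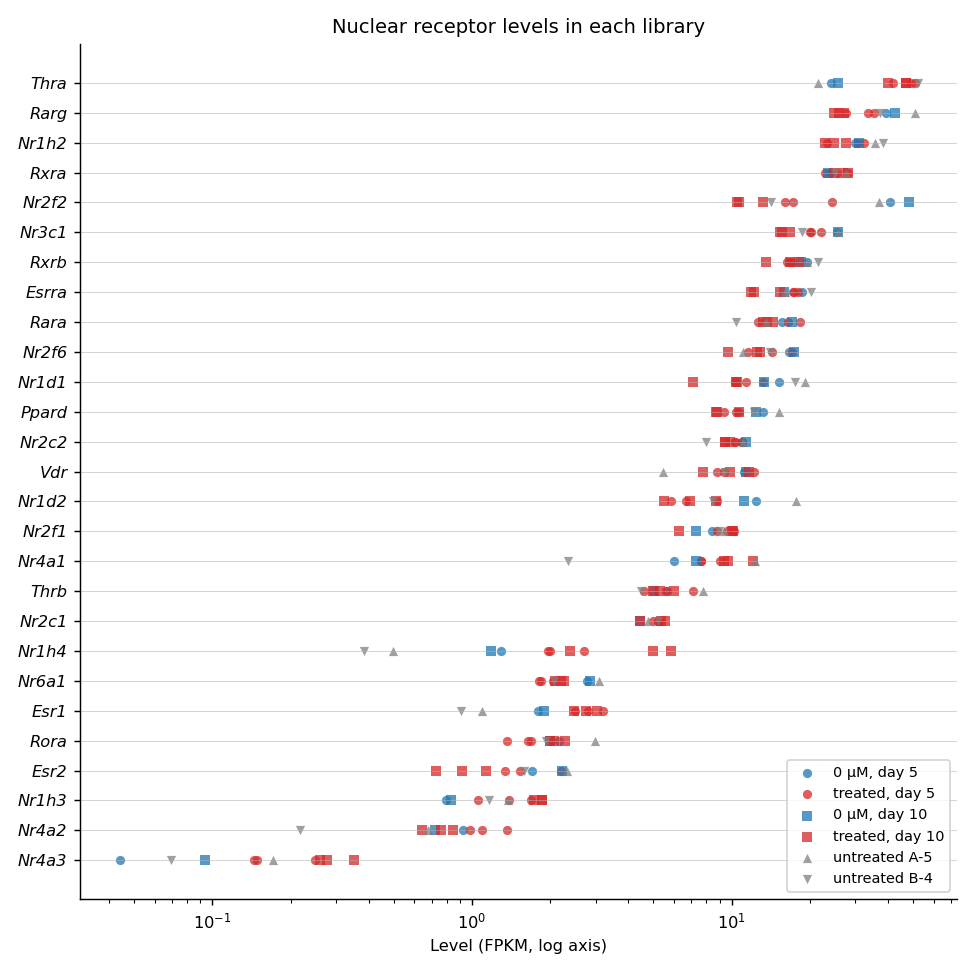
FPKM (log axis) of the 27 receptors with at least 10 counts in all 10 libraries, 1 symbol per library, with circles for day 5, squares for day 10 and triangles for the untreated libraries. Thra was above both 0 μM libraries in all 6 treated libraries and Nr2f2 was below both, while Rxra stayed between 23.0 and 28.2 FPKM in all 10.

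The receptor mRNA with the highest level was not the same in the groups. Nr2f2 was highest in both 0 μM libraries, at 40.7 and 48.3 FPKM, and Thra was highest in all 6 treated libraries, at 40.1 to 51.0 FPKM. Thra divided by Nr2f2 was 0.592 on day 5 and 0.530 on day 10 at 0 μM, and ran from 2.10 to 4.44 in treated cells. It was 0.582 in A-5 and 3.66 in B-4. The summed FPKM of the 47 receptors was 354 and 361 at 0 μM and 283 to 352 in treated cells.

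The effect of treatment was tested with edgeR's quasi-likelihood test on the counts of 16794 genes, with day as a covariate and p-values adjusted by the Benjamini-Hochberg method over all of them. Of the 47 receptors, 31 passed the filter on low counts and were tested. The limits of the study were an adjusted p under 0.05 together with more than a doubling or halving, which is 1 on the log2 scale. By both, 4 receptors were higher (Nr4a3, Nr1h4, Ppara and Hnf4a) and 1 was lower (Nr2f2) in treated cells. That is 12.9% and 3.23% of the 31, beside 13.4% and 5.98% of all genes tested. Hnf4a had 0 and Ppara had 5 counts in both 0 μM libraries together. They passed the filter through the treated libraries alone, so a call upwards was the only one open to them. With a filter of at least 10 counts in every library neither was tested. By both limits 4 of 27 receptors were then higher and 1 lower, beside 1099 and 737 of 13268 genes. With no fold limit 8 receptors rose and 7 fell, 25.8% and 22.6% of the 31, beside 22.6% and 20.8% of all genes. At an unadjusted p under 0.05 there were 15 receptors (48.4%), beside 51.5% of all genes. The shares of called receptors were thus near those of all genes. The median log2 fold change was -0.12 over the 31 receptors and 0.05 over all genes. In the text below, a gene that rose or fell passed the adjusted p, and the fold limit is named where it was passed as well.

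The 6 treated libraries lay wholly above both 0 μM libraries in FPKM for 7 of the 31 receptors (22.6%, beside 23.8% of all genes). They lay wholly below both for 8 of the 31 (25.8%, beside 27.2% of all genes). Ppara, which passed the filter through the treated libraries alone, was among the 7.

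**Figure D2:**
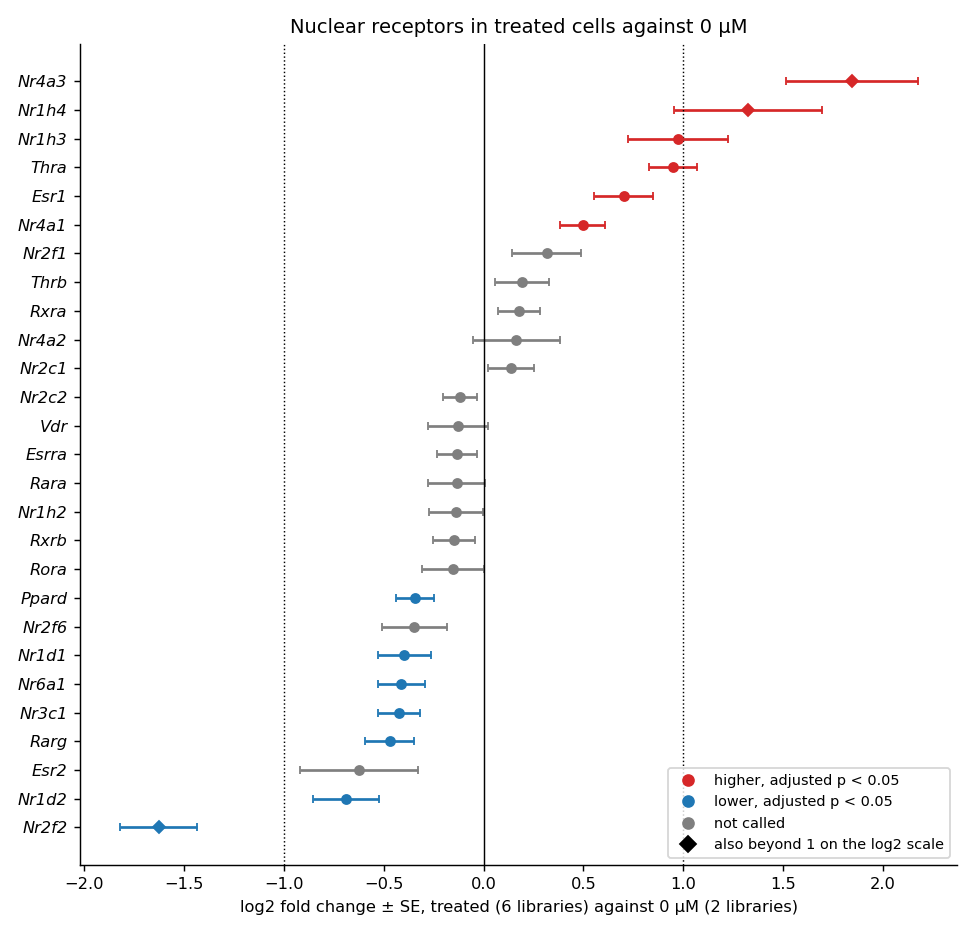
Log2 fold change of treated (6 libraries) against 0 μM (2 libraries) with its standard error, for the 27 receptors with at least 10 counts in every library, from edgeR. Red points rose and blue points fell at an adjusted p under 0.05, and diamonds also passed a log2 fold change of 1 in either direction: Nr4a3 and Nr1h4 upwards and Nr2f2 downwards.

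LXR and FXR sense oxidised cholesterol and bile acids. Of their 4 genes, Nr1h3 and Nr1h4 rose, Nr1h2 did not pass the test, and Nr1h5 was too low to be tested. Nr1h4 encodes FXR, the bile acid receptor best known from liver and intestine. It stood at 1.30 FPKM on day 5 and 1.18 FPKM on day 10 at 0 μM. With 100, 150 and 200 μM it was at 2.0, 2.70 and 1.96 FPKM on day 5 and at 2.39, 5.87 and 4.99 FPKM on day 10. All 6 treated libraries were above both 0 μM libraries, and the highest 2 were 150 and 200 μM on day 10. The untreated libraries were lower still, at 0.497 FPKM in A-5 and 0.384 FPKM in B-4. The fold change was 1.32 ± 0.37 on the log2 scale (SE, 6 against 2 libraries, edgeR adjusted p = 0.016), past the fold limit. It was 0.78, with an edgeR adjusted p of 0.22, when the 0 μM library of day 10 was left out. Against both untreated libraries instead of 0 μM it was 2.93.

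Nr1h3 encodes LXR alpha, which is known for its high level in macrophages, liver and fat. Its level at 0 μM was 0.796 FPKM on day 5 and 0.827 FPKM on day 10. In the order 100, 150 and 200 μM the treated libraries were at 1.69, 1.05 and 1.38 FPKM on day 5 and at 1.86, 1.73 and 1.86 FPKM on day 10. Every treated library was above both 0 μM libraries, with 150 μM on day 5 closest to them. On the log2 scale it rose by 0.97 ± 0.25 (SE, edgeR adjusted p = 0.011), and 0.77 with an edgeR adjusted p of 0.13 when the 0 μM library of day 10 was left out. A-5 and B-4 were at 1.38 and 1.16 FPKM, inside the treated range, and against them the log2 fold change was 0.34 with an edgeR adjusted p of 0.42.

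Nr1h2 encodes LXR beta, the form made in most tissues. Its FPKM was 29.98 and 30.94 on days 5 and 10 at 0 μM, 32.3, 23.3 and 30.8 with the rising doses on day 5, and 24.8, 22.8 and 27.6 on day 10. It was 35.6 in A-5 and 38.2 in B-4, above all of these. The treated range enclosed both 0 μM libraries. The log2 fold change was -0.14 ± 0.14 (SE, edgeR adjusted p = 0.44), with a 95% interval from -0.44 to 0.17. LXR beta mRNA was far above LXR alpha mRNA throughout, and Nr1h2 divided by Nr1h3 was 37.7 and 37.4 at 0 μM and 13.2 to 22.2 in treated cells. Nr1h5, which encodes FXR beta, had 0 counts in both 0 μM libraries and in both untreated libraries. Its counts in treated cells were 3, 4 and 2 on day 5 and 3, 7 and 2 on day 10. These are mostly at or under the floor of 3 counts a library, and no test was made.

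RefSeq holds a start of Nr1h4 inside the longer gene span of GENCODE. The 250 bases before it, chr10:89506659-89506908 on the minus strand of GRCm38.p6, touch no GENCODE exon. They are shown because Nr1h4 was the sterol-sensing receptor with the largest rise, with capitals for the core motif of nuclear receptor sites, AGGTCA, which reads TGACCT on the other strand.
Nr1h4: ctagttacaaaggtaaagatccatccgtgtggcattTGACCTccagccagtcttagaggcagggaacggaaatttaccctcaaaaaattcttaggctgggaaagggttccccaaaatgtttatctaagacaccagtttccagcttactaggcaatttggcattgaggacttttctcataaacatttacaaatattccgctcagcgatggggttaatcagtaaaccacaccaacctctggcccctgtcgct
The motif was found 1 time here. It occurs in 14.0% of 32851 promoters of this length and in 17.2% of the 64 promoters that RefSeq holds for 43 of the 47 receptors. A match of these letters is a description and not a binding site.

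The steroid hormone receptors moved in different directions. Esr1, the estrogen receptor alpha, was at 1.80 and 1.89 FPKM on days 5 and 10 at 0 μM. Treated libraries were at 3.2, 2.49 and 2.81 FPKM on day 5 and at 3.04, 2.47 and 2.76 FPKM on day 10, in the order of dose. They were all above both 0 μM libraries, and on each day 100 μM was highest and 150 μM lowest. The log2 fold change was 0.70 ± 0.15 (SE, edgeR adjusted p = 0.0041). Leaving out the 0 μM library of day 5 gave 0.64 with an edgeR adjusted p of 0.0503, which loses the call. Both untreated libraries were below 0 μM, at 1.10 and 0.903 FPKM, and against them the log2 fold change was 1.62.

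Esr2, the estrogen receptor beta, is known to share ligands with Esr1. It was at 1.70 FPKM on day 5 and 2.23 FPKM on day 10 at 0 μM, at 2.20, 1.34 and 1.53 FPKM on day 5 with 100, 150 and 200 μM, and at 1.14, 0.725 and 0.919 FPKM on day 10. A-5 and B-4 were at 2.32 and 1.58 FPKM. The groups overlapped on day 5, whereas on day 10 every treated library was under the 0 μM library. Over both days it did not pass the test (log2 fold change -0.62, 95% interval from -1.29 to 0.04, edgeR adjusted p = 0.12). Esr1 divided by Esr2 was 1.06 and 0.849 at 0 μM, 1.46 to 1.87 in treated cells on day 5 and 2.68 to 3.41 on day 10. In A-5 and B-4 it was 0.474 and 0.572.

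Nr3c1, the glucocorticoid receptor, fell. Its FPKM was 25.4 and 25.7 on days 5 and 10 at 0 μM, 22.1, 20.1 and 20.1 with 100, 150 and 200 μM on day 5, and 16.7, 15.4 and 15.6 on day 10. No treated library reached a 0 μM library, and the 3 libraries of day 10 were the lowest. It changed by a log2 of -0.42 ± 0.11 (SE, edgeR adjusted p = 0.0095). It was -0.24 with an edgeR adjusted p of 0.22 without the 0 μM library of day 10. A-5 and B-4 were at 25.6 and 18.6 FPKM, and against both the log2 fold change was -0.30 with an edgeR adjusted p of 0.19.

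Nr3c2, the mineralocorticoid receptor, and Pgr, the progesterone receptor, were close to the floor. Nr3c2 had 2 and 0 counts at 0 μM, 6, 10 and 3 on day 5 and 3, 10 and 7 on day 10 with treatment, and 6 and 2 in the untreated libraries. Scaled to library size, the summed counts were 6.39 times those at 0 μM, with a counting interval from 1.65 to 54.6 that covers counting error only. Pgr had 2 counts in 150 μM on day 5, 2 counts in B-4 and 0 in the other 8 libraries.

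Vdr, the vitamin D receptor, was among the well measured receptors with no call. It was at 11.2 and 11.4 FPKM at 0 μM, at 12.2, 9.34 and 8.80 FPKM on day 5 and at 7.76, 9.90 and 11.7 FPKM on day 10. The groups overlapped (log2 fold change -0.13, 95% interval from -0.47 to 0.21, edgeR adjusted p = 0.52). A-5 was lower than all of these, at 5.42 FPKM, and B-4 was at 9.45 FPKM. Nr1i3, the xenobiotic sensor CAR, had 3 to 44 counts a library and no call, and 74.9% of its exon bases are shared with Tomm40l on the other strand. Nr1i2, the pregnane X receptor, had 3 and 4 counts in 150 and 200 μM on day 10 and 0 elsewhere.

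**Figure D3:**
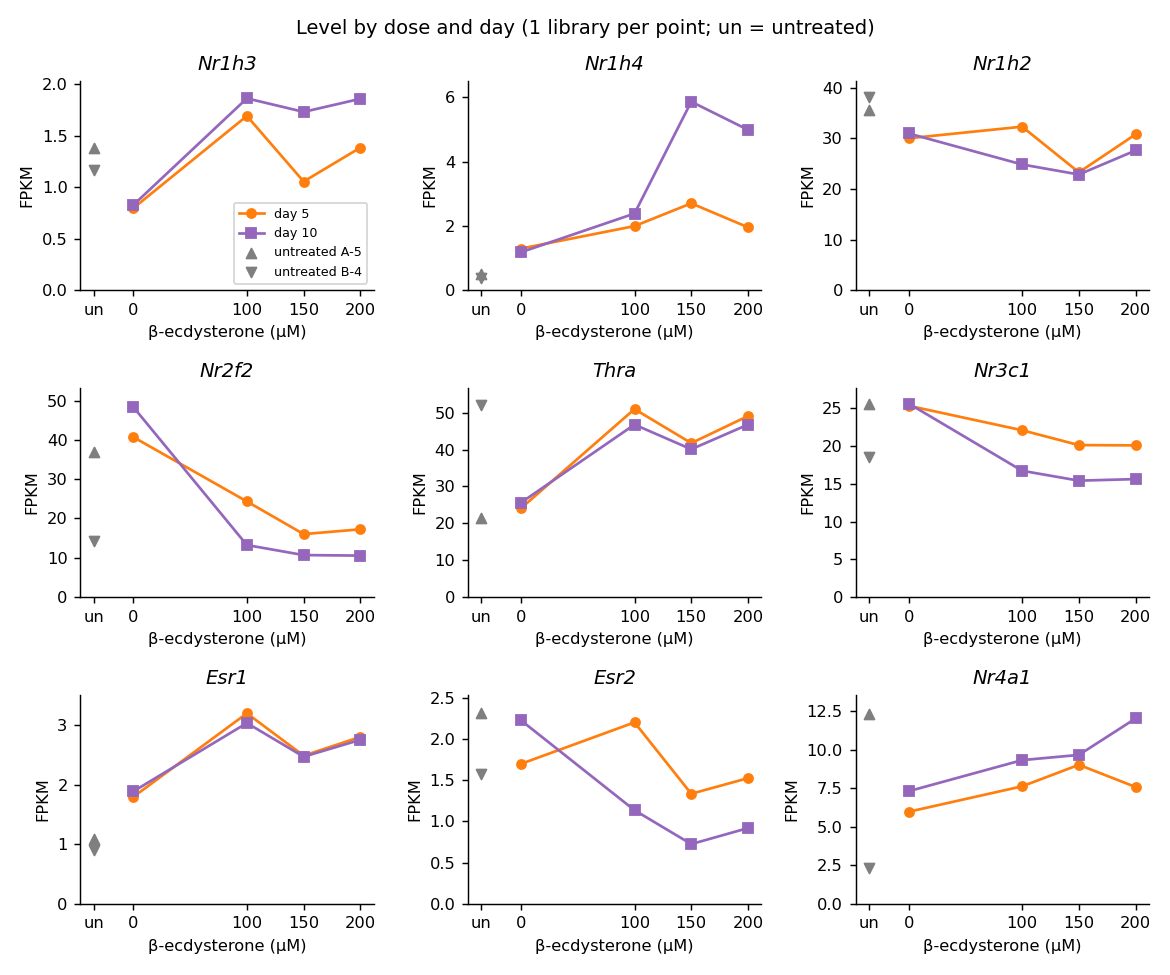
FPKM of 9 receptors by dose (μM), with orange circles for day 5, purple squares for day 10 and grey triangles for the untreated libraries (un), 1 library per point and every vertical axis from 0. Nr1h4 was highest in 150 and 200 μM on day 10, Nr2f2 fell on both days, Thra rose in all 6 treated libraries, and Esr2 was under its 0 μM library in all treated libraries of day 10.

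The thyroid hormone receptor alpha had the second smallest adjusted p of the family. Thra was at 24.1 and 25.6 FPKM on days 5 and 10 at 0 μM. With 100, 150 and 200 μM it was at 51.0, 41.8 and 49.1 FPKM on day 5 and at 46.8, 40.1 and 46.8 FPKM on day 10. All treated libraries were well above both 0 μM libraries, with 150 μM lowest on each day. It rose by a log2 of 0.95 ± 0.12 (SE, edgeR adjusted p = 0.00019), just inside the fold limit, and it was 0.91 to 1.0 with each library left out in turn. The gene lies at chr11:98740638-98769006 on the plus strand of GRCm38, and its end overlaps Nr1d1 on the minus strand. The shared 263 bases are 5.70% of its exon bases and 8.55% of those of Nr1d1. The sources used here do not state whether strand was used in counting, so reads there cannot be told apart. Against both untreated libraries the log2 fold change of Thra was 0.35 with an edgeR adjusted p of 0.41. With 0 μM and untreated libraries together as controls it was 0.62 with an edgeR adjusted p of 0.072, so both lost the call. Against B-4 alone it was -0.16, and against A-5 alone 1.17.

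Thrb, the thyroid hormone receptor beta, ranged from 4.61 to 7.09 FPKM in treated cells around 5.04 and 5.66 FPKM at 0 μM, with no call. Of the retinoic acid receptors, Rarg fell. It was at 39.4 and 42.8 FPKM at 0 μM, at 35.2, 27.6 and 33.4 FPKM on day 5 and at 24.7, 25.9 and 27 FPKM on day 10. All 6 treated libraries were below both 0 μM libraries, and those of day 10 were below those of day 5. It changed by a log2 of -0.47 ± 0.12 (SE, edgeR adjusted p = 0.012), and -0.30 with an edgeR adjusted p of 0.22 without the 0 μM library of day 10. Rarg was at 51.0 FPKM in A-5 and 37.2 FPKM in B-4, and against B-4 alone the log2 fold change was -0.41 with an edgeR adjusted p of 0.13. Rara did not pass the test, at 12.6 to 18.4 FPKM in treated cells and 15.7 and 17.1 FPKM at 0 μM. Rarb, itself a known retinoic acid target, had 3 and 0 counts at 0 μM and 1 to 8 counts with treatment.

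The retinoid X receptors, partners of LXR, FXR, Vdr, the thyroid hormone receptors, the retinoic acid receptors and the PPARs, showed no call. Rxra was at 24.0 and 23.6 FPKM at 0 μM, at 28.0, 23.0 and 25.5 FPKM on day 5 and at 26.8, 24.7 and 28.2 FPKM on day 10. A-5 and B-4 were at 27.5 and 25.04 FPKM. Its log2 fold change was 0.18 with a 95% interval from -0.06 to 0.42. Rxrb was at 19.5 and 18.5 FPKM at 0 μM, and at 16.8, 16.3 and 17.1 FPKM on day 5 and 13.5, 18.1 and 16.9 FPKM on day 10. In FPKM its treated libraries were all below 0 μM, and A-5 and B-4 were at 19.6 and 21.6 FPKM. Scaled as in the test, 1 treated library lay above the 0 μM library of its day and 5 lay below. The log2 fold change of -0.15 did not pass (95% interval from -0.39 to 0.09, edgeR adjusted p = 0.28). Rxrg had 4 counts in 150 μM on day 5, 2 counts at 0 μM on day 10, and 0 in the other libraries.

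The PPARs are fatty acid receptors. Ppard, the form made in most tissues, fell. It was at 13.2 and 12.4 FPKM at 0 μM, at 9.31, 10.4 and 10.7 FPKM on day 5 and at 8.68, 8.82 and 10.7 FPKM on day 10. Both groups were apart (log2 fold change -0.34 ± 0.09, SE, edgeR adjusted p = 0.015). Without the 0 μM library of day 5 or of day 10 the edgeR adjusted p was 0.12 and 0.083. Ppard was at 15.2 FPKM in A-5 and 12.2 FPKM in B-4, and against B-4 alone the edgeR adjusted p was 0.098. Ppara rose past the fold limit from very few reads. Its counts were 5 and 0 at 0 μM, 13, 21 and 6 on day 5, 13, 20 and 21 on day 10, and 0 and 4 in A-5 and B-4. The scaled counts were 6.16 times those at 0 μM, with a counting interval from 2.55 to 19.4 (edgeR adjusted p = 0.019). Leaving out the 0 μM library of day 10 gave a log2 fold change of 1.70 with an edgeR adjusted p of 0.14, and against both untreated libraries the edgeR adjusted p was 0.059. Pparg, the regulator of fat cells, had 7 and 1 counts at 0 μM and 2 to 17 with treatment, with no call (edgeR adjusted p = 0.20).

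Nr2f2 had the smallest adjusted p of the family and was the receptor that fell past the fold limit. COUP-TFII, its product, is an orphan receptor that mostly represses and is known from mesenchymal progenitors and veins. Nr2f2 was at 40.7 and 48.3 FPKM on days 5 and 10 at 0 μM. With 100, 150 and 200 μM it was at 24.3, 16.0 and 17.2 FPKM on day 5 and at 13.2, 10.7 and 10.5 FPKM on day 10. All treated libraries were far below both 0 μM libraries, every library of day 10 was below every library of day 5, and 100 μM was highest on each day. The log2 fold change was -1.63 ± 0.19 (SE, edgeR adjusted p = 0.00015), which is 3.09-fold lower, and ran from -2.06 to -1.13 with each library left out in turn. Against both untreated libraries it was -0.61 with an edgeR adjusted p of 0.21, so the call was lost. Against A-5 alone it was -1.07, and against B-4 alone 0.084. The gene lies at chr7:70351944-70366735 on the minus strand of GRCm38, and 7.46% of its exon bases overlap B130024G19Rik on the other strand.

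Nr2f1, the paralog that encodes COUP-TFI, did not pass the test. It was at 7.29 and 8.38 FPKM at 0 μM and at 6.29 to 10.2 FPKM in treated cells, and its log2 fold change was 0.32 with a 95% interval from -0.07 to 0.71. The remaining NR2 receptors showed no call. Nr2c1 and Nr2c2, the testicular receptors, were at 4.45 to 5.54 FPKM and 9.39 to 11 FPKM in treated cells, and Nr2f6 at 9.70 to 17.0 FPKM. 54.4% of the exon bases of Nr2f6 are shared with Ocel1 on the other strand, and 30.7% of those of Nr2c2 with Mrps25. Nr2e1 had at most 5 counts a library and Nr2e3 had 2 counts at 0 μM on day 5 and 0 elsewhere.

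Nr1d1 and Nr1d2, the heme-binding REV-ERB repressors of the circadian clock, both fell. Nr1d2 was at 12.4 and 11.1 FPKM at 0 μM, at 6.69, 8.81 and 5.82 FPKM on day 5 and at 5.47, 8.71 and 6.89 FPKM on day 10. The treated libraries were all below both 0 μM libraries, with 150 μM highest on each day. The log2 fold change was -0.69 ± 0.17 (SE, edgeR adjusted p = 0.0082), and -0.57 with an edgeR adjusted p of 0.099 when the 0 μM library of day 5 was left out. It was at 17.6 FPKM in A-5 and 8.47 FPKM in B-4, and against B-4 alone the log2 fold change was -0.27 with an edgeR adjusted p of 0.44. Nr1d1 was at 15.2 and 13.3 FPKM at 0 μM, at 11.4, 13.2 and 10.3 FPKM on day 5 and at 7.13, 10.4 and 10.4 FPKM on day 10. The 150 μM library of day 5 came close to the 0 μM library of day 10, and A-5 and B-4 were higher, at 19.1 and 17.5 FPKM. Its log2 fold change of -0.40 ± 0.13 (SE, edgeR adjusted p = 0.034) lost its call with 4 of the 8 libraries left out. These were both 0 μM libraries and 100 and 200 μM of day 5, with edgeR adjusted p-values of 0.13, 0.19, 0.053 and 0.062. Rora, an activator that competes with the REV-ERBs for their sites, was at 2.17 and 1.99 FPKM at 0 μM, at 1.65, 1.69 and 1.37 FPKM on day 5 and at 2.28, 2.0 and 2.07 FPKM on day 10. It was lower than 0 μM on day 5 and level with it on day 10, and A-5 and B-4 were at 2.98 and 1.92 FPKM. Over both days it had no call (log2 fold change -0.15, edgeR adjusted p = 0.45). Rorb had at most 4 counts a library. The hour of harvest is not given in the labels, and its part in the values of clock genes was not tested.

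The NR4A receptors are early response genes whose proteins act without a known hormone. Nr4a1 was at 5.98 and 7.32 FPKM at 0 μM, at 7.64, 9.03 and 7.59 FPKM on day 5 and at 9.34, 9.68 and 12.0 FPKM on day 10. All treated libraries were above both 0 μM libraries, 2 of them by little. The rise was a log2 of 0.50 ± 0.11 (SE, edgeR adjusted p = 0.0054). It was 0.42 with an edgeR adjusted p of 0.097 without the 0 μM library of day 10. The untreated libraries lay at both ends, with 12.3 FPKM in A-5 and 2.34 FPKM in B-4, so that against A-5 alone the log2 fold change was -0.29 and against B-4 alone 2.06. Against both it was 0.44 with an edgeR adjusted p of 0.53. With 0 μM and untreated libraries together as controls it was 0.48 with an edgeR adjusted p of 0.31, so both lost the call.

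Nr4a3 rose past the fold limit at a low level. Its counts were 15 and 19 at 0 μM, 29, 93 and 29 on day 5 and 46, 99 and 119 on day 10, which is 0.0441 and 0.0934 FPKM at 0 μM and 0.145 to 0.351 FPKM with treatment. Every treated library was above both 0 μM libraries. The rise was a log2 of 1.84 ± 0.33 (SE, edgeR adjusted p = 0.0016), or 3.59-fold higher, and 1.71 to 1.97 with each library left out in turn. A-5 and B-4 were at 0.172 and 0.0696 FPKM, and A-5 lay inside the treated range. Against both of them the rise was 1.03 with an edgeR adjusted p of 0.15, and against A-5 alone 0.55 with an edgeR adjusted p of 0.48, so the call was lost. Nr4a2 did not pass the test. It was at 0.926 and 0.718 FPKM at 0 μM, at 1.09, 0.986 and 1.37 FPKM on day 5 and at 0.641, 0.843 and 0.761 FPKM on day 10, with 0.677 and 0.218 FPKM in A-5 and B-4, and its log2 fold change was 0.16 with a 95% interval from -0.33 to 0.66.

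NR4A genes are textbook targets of cyclic AMP signalling, whose response element holds the core TGACG, which reads CGTCA on the other strand. Their RefSeq promoters on GRCm38.p6 are printed to set the 3 genes beside each other, with the core in capitals. They are 250 bases before the start of Nr4a1 (chr15:101266596-101266845, plus strand), 250 bases before that of Nr4a2 (chr2:57124004-57124253, minus strand), and the 98 of the 250 bases before that of Nr4a3 that are in no GENCODE exon (chr4:48045055-48045152, plus strand). The RefSeq start of Nr4a1 used here lies inside the longer gene span of GENCODE, chr15:101254269-101274795.
Nr4a1: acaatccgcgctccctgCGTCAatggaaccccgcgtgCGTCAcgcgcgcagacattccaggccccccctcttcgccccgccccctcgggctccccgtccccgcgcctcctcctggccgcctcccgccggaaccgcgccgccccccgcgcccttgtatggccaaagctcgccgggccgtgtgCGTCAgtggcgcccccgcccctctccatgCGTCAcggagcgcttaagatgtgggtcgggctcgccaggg
Nr4a2: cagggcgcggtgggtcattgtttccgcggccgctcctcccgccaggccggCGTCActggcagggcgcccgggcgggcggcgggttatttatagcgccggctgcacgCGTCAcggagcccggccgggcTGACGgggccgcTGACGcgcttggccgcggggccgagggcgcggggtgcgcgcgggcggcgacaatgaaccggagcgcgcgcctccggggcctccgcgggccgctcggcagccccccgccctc
Nr4a3: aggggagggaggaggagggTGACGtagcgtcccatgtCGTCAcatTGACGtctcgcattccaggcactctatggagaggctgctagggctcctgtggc
Each of the 3 promoters holds the core 4 times in its 250 bases, and the printed stretch of Nr4a3 holds 3 of them. The core occurs in 17.8% of all 32851 promoters of this length, and 4 or more copies occur in 45 of them (0.137%). For the starts used here, the 3 promoters hold equal numbers of copies. The part of the core in the levels of these genes was not tested.

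Of the remaining receptors, Nr6a1, the germ cell nuclear factor, fell. It was at 2.77 and 2.85 FPKM at 0 μM, at 2.06, 1.81 and 1.85 FPKM on day 5 and at 2.27, 2.10 and 2.20 FPKM on day 10. The groups did not overlap (log2 fold change -0.41 ± 0.12, SE, edgeR adjusted p = 0.018). Leaving out the 0 μM library of day 5 gave -0.29 with an edgeR adjusted p of 0.22. A-5 and B-4 were at 3.07 and 2.06 FPKM, and against both the log2 fold change was -0.32 with an edgeR adjusted p of 0.20. Esrra, the estrogen-related receptor alpha, which drives genes of mitochondria, was at 18.6 and 15.9 FPKM at 0 μM and 11.9 to 18 FPKM with treatment, with no call.

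Hnf4a, a liver factor, rose past the fold limit from near nothing. Its counts were 0 in both 0 μM and both untreated libraries, 0, 26 and 12 on day 5 and 2, 6 and 8 on day 10. With 0 μM set at the floor of 3 counts per library, it was at least 2.54-fold higher (edgeR adjusted p = 0.036). The call was lost without the 0 μM library of day 5 (edgeR adjusted p = 0.24), the 0 μM library of day 10 (0.099) or 200 μM on day 10 (0.056), and against both untreated libraries (0.10). Hnf4g, Esrrb, Esrrg, Nr5a1 and Nr5a2 had at most 13 counts in any library and were not tested over both days. Nr5a1, the steroidogenic factor, passed the filter of the tests by day and was not called there. The gene for SHP, Nr0b2, a textbook target of FXR, and Nr0b1 had no count in any library, which allows up to 3 counts in each.

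Whether the effect differed between the days was tested as the difference of the effects on day 10 and day 5, over 17799 genes and 32 receptors. EdgeR called 0 receptors, beside 0.0112% of all genes, and DESeq2 called 0 as well. At an unadjusted p under 0.05 there were 4 receptors (12.5%, beside 8.23% of all genes), Nr2f2, Rora, Ppara and Esr2. Ppara had 0 counts at 0 μM on day 10, so its fold there depends on the prior count of the fit, and its difference had an edgeR adjusted p of 0.57. Nr2f2 changed by a log2 of -1.13 ± 0.20 on day 5 and -2.06 ± 0.19 on day 10 (SE), a difference of -0.93 with an edgeR adjusted p of 0.50. Esr2 had -0.01 ± 0.34 on day 5 and -1.16 ± 0.33 on day 10, a difference of -1.15 with an edgeR adjusted p of 0.58. Rora had -0.47 ± 0.16 and 0.20 ± 0.17, a difference of 0.68 with an edgeR adjusted p of 0.54. Nr1h4 had 0.78 ± 0.43 and 1.98 ± 0.46, a difference of 1.21 with a 95% interval from -0.13 to 2.54 that includes 0.

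Within each day, 1 library at 0 μM was compared with 3 treated libraries. The spread in these tests came from the treated libraries alone, which differ in dose, and the lone 0 μM library was assumed to vary like them. On day 5 Thra, Esr1 and Nr4a3 rose and Nr1d2, Nr2f2 and Nr6a1 fell, 9.38% of the 32 receptors in each direction, beside 12% and 10.7% of all genes. At an unadjusted p under 0.05 there were 11 receptors (34.4%), beside 36.4% of all genes. On day 10 Thra, Ppara, Nr1h3, Nr1h4, Nr4a1 and Nr4a3 rose (18.8%, beside 15.8%) and Rarg, Nr2f2, Esr2 and Nr3c1 fell (12.5%, beside 14.2%), and 12 receptors had an unadjusted p under 0.05 (37.5%, beside 41.9%). Thra (0.98 on day 5 and 0.90 on day 10), Nr4a3 (1.97 and 1.72) and Nr2f2 passed on both.

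**Figure D4:**
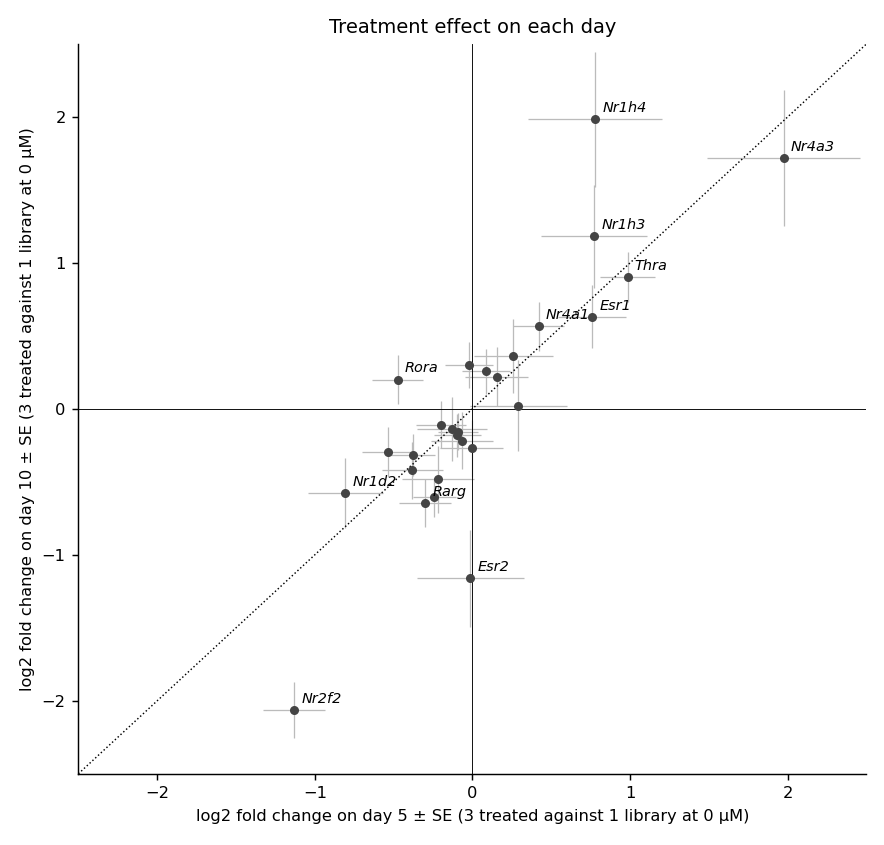
Log2 fold change of treated cells on day 5 (horizontal) and day 10 (vertical), each 3 treated libraries against 1 at 0 μM, with standard errors, for the 27 receptors with at least 10 counts in every library. The dotted line marks equal effects, Nr1h4 lies above it and Nr2f2, Esr2 and Rarg below it, and no difference between the days passed the adjusted p.

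Among treated cells alone, day 10 was compared with day 5 over 16020 genes and 30 receptors. Rora was higher on day 10 by a log2 of 0.56 ± 0.12 (SE, edgeR adjusted p = 0.046), and no receptor was lower, beside 2.08% and 0.718% of all genes. The call on Rora was lost with 5 of the 6 libraries left out in turn (edgeR adjusted p up to 0.22) and held without 150 μM on day 5. By DESeq2 3 of 30 receptors were higher and 2 lower, beside 691 and 508 of 16020 genes. With dose as a block, since the days share the 3 doses, edgeR gave 2 of 31 receptors higher and 2 lower. Over all 16664 genes of that fit, 455 were higher and 227 lower. At an unadjusted p under 0.05 there were 9 receptors (30%, beside 18.3% of all genes). Nr2f2, at -0.66 with an edgeR adjusted p of 0.051, and Nr1h4, at 1.07 with an edgeR adjusted p of 0.081, came next to the limit.

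No receptor showed a trend with dose from 100 to 200 μM. EdgeR and DESeq2 each called 0 of the 31 receptors tested, edgeR gave 0 at an unadjusted p under 0.05 beside 2.35% of all 16664 genes, and 1 gene in all was called upwards (0.006%). The slope of Nr2f2 was -0.14 ± 0.08 (SE) on the log2 scale per 50 μM, and that of Nr1h4 was 0.22 ± 0.18.

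Genes that work with the receptors are described by lists of textbook partners, enzymes and targets. The lists were chosen with earlier results of these data known, so their counts describe them and test nothing. The lists share some genes, as Fkbp5 is both a chaperone and a glucocorticoid target. Over all genes tested 22.6% rose and 20.8% fell, which is the background for each list. Of 20 coregulators, all tested, 3 rose (15%) and 9 fell (45%), with a median log2 fold change of -0.12. Ncoa7, a coactivator, rose from 6.61 and 6.62 FPKM to between 12.5 and 15.9 FPKM, a log2 fold change of 1.14 ± 0.13 (SE, edgeR adjusted p = 0.00011). Its unscaled counts were 1007 in A-5 and 1980 in B-4, beside 1878 to 4152 in treated libraries. Ppargc1b, a coactivator of Esrra and of mitochondrial genes, fell by 1.23 on the log2 scale, from 1.42 and 1.49 FPKM to between 0.389 and 0.900 FPKM. Its relative Ppargc1a rose from 5 counts in both 0 μM libraries together, with a scaled ratio of 7.08 and a counting interval from 2.94 to 22.2. The corepressor Nrip1 (-0.64) fell.

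Of 10 chaperones of steroid receptors, 1 rose (10%) and 5 fell (50%, median -0.27). Hsp90aa1 and Stip1, which hold the glucocorticoid receptor ready for its hormone, fell by 0.85 and 0.82. Fkbp5, an inhibitor of that complex, was at 17.3 and 17.5 FPKM at 0 μM and at 113 to 160 FPKM in treated cells. It rose by a log2 of 3.03 ± 0.13 (SE, edgeR adjusted p = 6.22e-07). It was at 23.3 FPKM in A-5 and at 235 FPKM in B-4.

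Of 30 genes that make or break down receptor ligands, 23 were tested, 5 rose (21.7%) and 7 fell (30.4%, median 0.09). Aldh1a1, which makes retinoic acid, rose from 2.32 and 2.49 FPKM to between 93.4 and 122 FPKM, a log2 fold change of 5.55 ± 0.16. Cyp26b1, which breaks it down, rose from 1.96 and 2.97 FPKM to between 40.4 and 152 FPKM, by 5.08 ± 0.48. B-4 was at 111 FPKM for Aldh1a1, within the treated range, and at 4.63 FPKM for Cyp26b1, far below it. Cyp26a1, a relative of Cyp26b1 with the same role, fell by 1.05, and Rdh10, which makes retinal, was not called (0.04). Both deiodinases tested fell, Dio3, which inactivates thyroid hormone, by 2.73 on the log2 scale and Dio2, which activates it, by 1.81, from 1.05 and 1.03 FPKM and from 0.199 and 0.325 FPKM at 0 μM. Srd5a1, the steroid reductase, fell by 1.24.

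**Figure D5:**
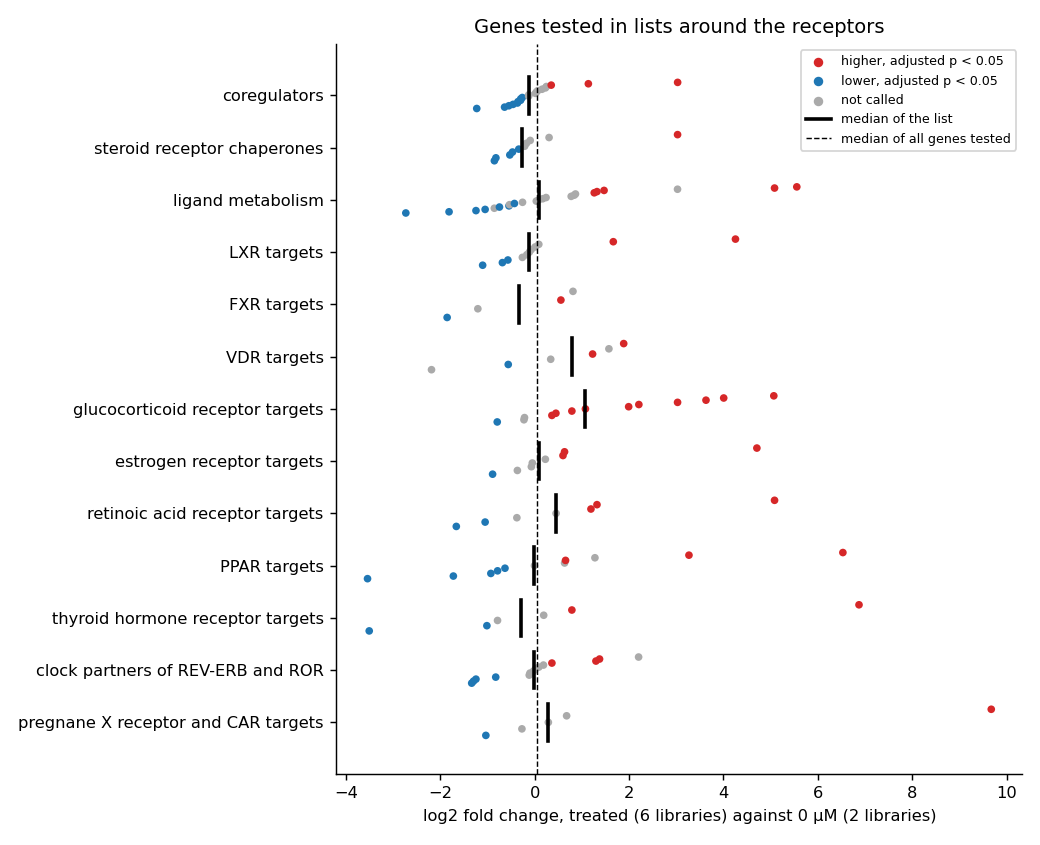
Log2 fold change of treated cells against 0 μM for every gene tested in 13 lists around the receptors, with red and blue points at an edgeR adjusted p under 0.05, a black bar at each list's median and a dashed line at the median of all genes (0.05). The glucocorticoid receptor list had the highest median, 1.08, among lists chosen with earlier results of these data known. Values of genes with no count at 0 μM (Cyp2b10 and Thrsp) depend on the prior count of the fit.

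Target lists of the sterol receptors held genes that rose and genes that fell. Of 16 LXR targets, 11 were tested, 2 rose (18.2%) and 3 fell (27.3%, median -0.11), shares near those of all genes. Abca1, the cholesterol exporter, was at 0.0967 and 0.123 FPKM at 0 μM and 1.65 to 2.84 FPKM in treated cells, and rose by 4.25 ± 0.28 on the log2 scale (edgeR adjusted p = 4.73e-06). Its unscaled counts were 140 in A-5 and 506 in B-4, beside 71 and 35 at 0 μM and 619 to 1452 in treated libraries. Abcg5 rose by 1.67 from 9 counts in both 0 μM libraries. The lipid synthesis genes Fasn (-1.10), Scd1 (-0.68) and Srebf1 (-0.57) fell. Of 8 FXR targets, 4 were tested. Sdc1 rose by 0.56 and Fetub fell by 1.85 (median -0.32). Vitamin D receptor targets were tested for 6 of 10 genes, of which Lrp5 (1.89) and Trpv6 (1.23) rose and Spp1 (-0.56) fell (median 0.78). Lrp5 had 6994 unscaled counts in A-5 and 25634 in B-4, beside 22325 to 46454 in treated libraries, so B-4 lay within their range.

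The glucocorticoid receptor list had the highest median of the lists. Since the lists were chosen with earlier results of these data known, this rank is a description and not a test. Of 13 genes, all tested, 10 rose (76.9%), 7 of them past the fold limit, and 1 fell (7.69%), beside 22.6% and 20.8% of all genes, and the median log2 fold change was 1.08. Zbtb16, a zinc finger repressor, rose from 0.0152 and 0.0759 FPKM to between 0.935 and 2.0 FPKM, by 5.07 ± 0.37. Klf15 rose from 11 counts in both 0 μM libraries, with a scaled ratio of 17.1 and a counting interval from 9.50 to 34.5. Klf15 had 10 unscaled counts in A-5 and 5 in B-4, beside 40 to 164 in treated libraries. Tsc22d3, which encodes the leucine zipper protein GILZ, rose by 3.63 ± 0.17, from 40.2 and 53.5 FPKM to between 487 and 636 FPKM. Nfkbia fell by 0.79. The receptor of these genes, Nr3c1, fell in the same libraries. In B-4 Tsc22d3 was at 571 FPKM and Zbtb16 at 0.430 FPKM, and in A-5 they were at 52.8 and 0.0190 FPKM.

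Of 11 estrogen receptor targets, 8 were tested, 3 rose (37.5%) and 1 fell (12.5%, median 0.09). Greb1, the best known of them, rose by 4.71 ± 0.28, from 0.0867 and 0.115 FPKM to between 2.06 and 4.17 FPKM, and Cxcl12 fell by 0.89. Greb1 had 19 unscaled counts in A-5 and 194 in B-4, beside 541 to 1574 in treated libraries. Retinoic acid receptor targets were tested for 7 of 10 genes, with 3 up, among them Cyp26b1 and Dhrs3, and 2 down (Tgm2 and Cyp26a1), and a median of 0.45. Of 13 PPAR targets, 11 were tested, 3 rose (27.3%) and 5 fell (45.5%, median 0.00). Angptl4, an inhibitor of lipoprotein lipase, fell by 3.54, and Cpt1a, the gate to fatty acid oxidation, fell by 1.72.

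Thyroid hormone receptor targets were tested for 6 of 7 genes. Klf9 (0.79) and Thrsp (0 counts at 0 μM, at least 5.11-fold higher with 0 μM at 3 counts per library) rose, while Bcl3 (-3.50) and Me1 (-1.01) fell, and the median was -0.30. Thrsp had 1 count in A-5 and 13 in B-4, beside 4 to 52 in treated libraries. Of 15 clock partners of REV-ERB and ROR, 14 were tested, 3 rose (21.4%) and 4 fell (28.6%, median 0.00). Nfil3 (1.30) and Bhlhe41 (1.38) rose, and Per3 (-1.33), Dbp (-1.29) and Bhlhe40 (-1.24) fell. Bhlhe41 had 1168 unscaled counts in A-5 and 3728 in B-4, beside 1734 to 4110 in treated libraries. Of 7 targets of the pregnane X receptor and CAR, 5 were tested. Cyp2b10, the classic CAR target, had 0 counts at 0 μM and was at 0.413 to 2.22 FPKM in treated cells, at least 36.6-fold higher with 0 μM at the floor. Its unscaled counts were 2 in A-5 and 62 in B-4, beside 27 to 252 in treated libraries, so B-4 lay within their range. Abcb1a fell by 1.03, and the median was 0.29.

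Markers of other cell types were summed in each library as FPKM. For 6 macrophage markers the sum was 12.0 and 20.8 at 0 μM and 22.3 to 42.4 in treated cells, most of it Lyz2. Lyz2 rose, while Cd68 (-0.46) and Csf1r (-0.94) were not called, Ptprc and Adgre1 had at most 13 counts in any library, and the median over the 3 markers tested was -0.46. For 6 muscle markers it was 0.547 and 0.646 against 1.27 to 2.60, with Myod1 at no more than 3 counts in any library. For 4 endothelial markers it was 0.145 and 0.170 against 0.449 to 0.604. For 6 adipocyte markers, with Cfd at 0 and Cidec at no more than 3 counts in any library, it was 1.79 and 1.98 against 1.64 to 4.37. For 5 chondrocyte markers it was 18.3 and 20.2 against 17.7 to 30.01, for 8 marrow stromal cell markers 298 and 319 against 244 to 346, and for 11 osteoblast markers 4389 and 5127 against 3434 to 6166. Among muscle markers only Des and Ckm were called, and among endothelial markers only Tek and Cdh5, all upwards. Macrophage, muscle and endothelial sums were thus above both 0 μM libraries in all 6 treated libraries, as were Nr1h3 and Nr1h4. The same held for 23.8% of all genes tested. In A-5 and B-4 the sums were 12.0 and 16.3, 0.713 and 1.28, and 0.156 and 0.151. Nr1h3 was at 1.38 and 1.16 FPKM there, inside its treated range, and Nr1h4 at 0.497 and 0.384 FPKM, below 0 μM. The part of these cell types in the rise of Nr1h3 and Nr1h4 was not tested.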

How the data were processed

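RNA-seq of 10 libraries was used. Per the labels, polyA RNA was extracted (n = 3), but 1 library per dose and day was deposited. The authors deposited raw read counts for each gene, and beside them FPKM, which they scaled to transcript length and library size. The submitters' processing notes name HISAT2 2.0.4 and GATK 3.2-2, and the counting program, genome build and annotation are not given in the sources used here. The deposited table also holds the authors' comparisons of libraries, GO terms and pathways (39 columns), which were not used.

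Counts were tested with edgeR 4.0.16 (TMM, filterByExpr, quasi-likelihood) in R 4.3.3, with DESeq2 1.42.0 and limma 3.58.1 as alternatives, and tables were made with pandas 2.3.3 and numpy 2.4.6. P-values were adjusted over all genes tested. The common biological coefficient of variation was 16.6%. Levels are FPKM, intervals of the fits are 95% intervals, and floors (3 counts per library) and counting intervals (exact binomial) cover counting error only. Positions came from GENCODE M21 (GRCm38), promoters from RefSeq.

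The members and the lists were chosen with earlier results of these data known. The rule for named genes asked for values by library for receptors called in any test, for the LXR, FXR, steroid, vitamin D and retinoid X receptors and for the 5 highest, and of each list up to 4 called genes with the largest changes in all 6 treated libraries, with some others named after their values were seen and a few not reported here. Alternatives were another tool, scaling, filter or unit, no day covariate, glmTreat, other control libraries and each library left out in turn.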

Additional observations from a re-analysis of the deposited data

Results flagged for a closer look

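Nr2f1 was at 6.29 FPKM in 150 μM on day 10, apart from the other 5 treated libraries, which lay between 8.77 and 10.2 FPKM. Its gap to the nearest library was 0.625 of the range of the group, at the critical value of Dixon's test for 6 values. 27 receptors were tested in this way, and chance flags about 1 in 20 groups.

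In the untreated library B-4, which entered no main comparison, Thra was at 52.0 FPKM, 2.03 times the higher of the 2 libraries at 0 μM and above all 6 treated libraries. In the other untreated library, A-5, it was at 21.5 FPKM.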

How the results depend on the processing

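Directions of the 15 receptors called in treated cells against 0 μM were kept under the alternatives run, except that against B-4 alone the log2 fold change was -0.16 for Thra and 0.084 for Nr2f2, and against A-5 alone -0.29 for Nr4a1. A-5 alone and B-4 alone were chosen after seeing the data, and the cause was not tested. Past the fold limit, 1 receptor was higher with glmTreat and 0 with limma on log2(FPKM + 1), and 2 higher and 0 lower with both untreated libraries in place of 0 μM. 2 were lower against A-5 alone and 0 against B-4 alone. With no fold limit, 2 receptors were higher and 4 lower against the untreated libraries, and 4 higher and 6 lower with both kinds of control. Calls over all genes were fewer in these settings too. Past the fold limit, glmTreat gave 1142 genes higher and 428 lower of 16794, beside 2254 and 1005 in the main test. With no fold limit, the untreated libraries gave 1585 and 1616 of 16012 genes. Both kinds of control gave 2116 and 2011 of 15285, beside 3790 and 3490 of 16794 in the main test. For day 10 against day 5 of treated cells, 3 receptors were higher and 2 lower with DESeq2 and with a filter of at least 1 count. With dose as a block 2 were higher and 2 lower. Over all genes DESeq2 called 691 higher and 508 lower of 16020, and that filter gave 702 and 419 of 25868. Dose as a block gave 455 and 227 of 16664. With each library left out in turn, 1 to 4 were higher and 1 to 2 lower past the fold limit, 3 to 9 higher and 3 to 7 lower without it, 0 to 1 higher and 0 to 1 lower between the days, and 0 were called for the difference between days and for dose. The smallest counts came without the 0 μM library of day 10, which leaves 1 control assumed to vary like the treated libraries. No paired analysis was possible because 0 μM has 1 library a day and shares no numbers with the doses, which were a block for the days alone. Receptors under about 10 counts a library are limited by depth.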
